A study of Mus musculus with 18 samples.

Results

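The 10 genes of telomere protection and telomerase described here (Terf1, Terf2, Terf2ip, Tinf2, Acd, Pot1a, Pot1b, Dkc1, Tert and Rtel1) were chosen by name among the 20878 genes of the deposited matrix. No rule on their values was used, but earlier results of these data were known. All 10 had a row in the matrix. They were measured by RNA sequencing in 18 tumors grown from K7M2, a cell line of mouse osteosarcoma that arose in the Balb/c strain, transduced with either an Atrx shRNA (ATRXKD) or a control shRNA (ATRXCT). The cells were grafted into immunocompetent Balb/c mice (strain Balb/c, 4 ATRXCT and 4 ATRXKD tumors) or into immunodeficient NSG mice, which lack T, B and NK cells (5 ATRXCT and 5 ATRXKD tumors). Every group, the controls included, carried a lentiviral shRNA. The study's methods give young females for both hosts, a stable knock-down line for the ATRXKD arm, and cages that each held mice of a single group. Tumors of an arm were grafts of the same cell population in both hosts. Knock-down cannot be told apart from other differences between the 2 cell populations, or from cage. The tumors came from separate mice. As bulk RNA holds both the graft and host cells, fewer cells of a type and less RNA per cell cannot be told apart.

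Shelterin is the protein complex that coats the TTAGGG repeats at chromosome ends and keeps them from being handled as broken DNA. TERF1 and TERF2 bind the double-stranded repeat, POT1 binds the single-stranded overhang, and TINF2 and ACD (also named TPP1) join the parts, ACD being also the contact through which telomerase is recruited. Telomerase, made of the reverse transcriptase TERT, the RNA template Terc and the dyskerin (DKC1) complex that stabilises this RNA, adds new repeats. ATRX loss is known in human sarcomas for going together with alternative lengthening of telomeres, which copies repeats by recombination in place of telomerase, and the comparisons ask whether the genes of telomere protection and telomerase differ once Atrx is knocked down.

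The depth, estimated from the smallest steps between FPKM values, was 14650000 to 25000000 fragments per tumor. Libraries differed in how their values leaned with transcript length, from -0.146 to 0.211 log2 units per doubling of length, and these slopes overlapped between the 4 groups. The target of the shRNA, Atrx, ranged from 10.3 to 26.0 FPKM in ATRXCT and from 7.88 to 21.5 in ATRXKD tumors of Balb/c mice, where the groups overlapped (difference -0.34 (SE 0.36, adjusted p = 0.999)). In NSG mice it ranged from 11.6 to 24.4 FPKM in ATRXCT and from 8.42 to 16.4 in ATRXKD tumors, with 4 of the 5 ATRXKD tumors under all controls (difference -0.74 (SE 0.22, adjusted p = 0.0610), exact permutation p = 0.0317). Differences are here always on the log2(FPKM + 1) scale, and adjusted p-values are from limma over all genes tested. Atrx RNA in the bulk tumors therefore did not pass the threshold of 0.05 in either host, nor over both (-0.56, adjusted p = 0.167), which limits each statement on knock-down. For the cell lines, K7M2 among them, the study reports loss of ATRX protein by western blot. It also reports that the shRNA left the status of alternative lengthening as it was in every line. Atrx RNA did pass in NSG mice with the length trend of each library removed (-0.66, adjusted p = 0.00782), with libraries weighted by quality (-0.84, adjusted p = 0.000976), without control 2 (-0.87, adjusted p = 0.0400) and without ATRXKD tumor 27 (-0.91, adjusted p = 0.0268), and over both hosts with the length trend removed (-0.48, adjusted p = 0.0159) or with weights (-0.70, adjusted p = 0.00764). Of the NSG fits leaving out a tumor it passed in 2 of 10 (adjusted p up to 0.153), and over both hosts in 0 of 18 (up to 0.289). Removal of the length trend and weights also raised the calls among all genes in NSG mice, from 994 to 1874 and 5414. The fit with weights also used limma's robust variance estimation, and the effects of these steps cannot be told apart. The SD of Atrx within groups was 0.50 as deposited and 0.21 with the length trend removed. A set of 4 Y-linked genes averaged 0.0 to 0.004 on the log2(FPKM + 1) scale in Balb/c and 1.90 to 3.04 in NSG tumors, although females are stated for both. Among 8 osteoblast markers averaged per tumor, the level was 2.35 to 3.15 on this scale, but Bglap, a marker of mature osteoblasts, was at 0 in every Balb/c ATRXCT tumor, and Ibsp, another, in every ATRXKD tumor of both hosts.

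FPKM values are scaled by transcript length, so that the levels of different genes can be set side by side. Dkc1 was the highest of the 10 with a mean of 30.9 FPKM over the 18 tumors, above 83.9% of all genes. Acd (25.2 FPKM), Tinf2 (16.1), Rtel1 (14.2), Pot1a (12.8), Terf2 (9.91), Terf1 (9.35), Terf2ip (6.60) and Pot1b (4.37) followed, and Pot1b was still above 52.3% of genes. Tert came last with 0.0350 FPKM. The order held tumor by tumor for some neighbours only. Acd exceeded Tinf2, Terf1 exceeded Terf2ip, Terf2ip exceeded Pot1b and Pot1b exceeded Tert in 18 of 18 tumors, and Dkc1 exceeded Acd in 17 of 18. In contrast, Rtel1 exceeded Pot1a in 8 of 18 tumors, with a mean difference of 0.13 against an SD of 0.39 between tumors, and Tinf2 exceeded Rtel1 in 12 of 18 (0.17, SD 0.47), as Terf2 did Terf1 (0.07, SD 0.21). In these 3 neighbouring pairs the mean difference was under its SD between tumors, and for Pot1a and Terf2 it was near it (14 of 18, 0.35, SD 0.33). The gene that was higher thus changed from tumor to tumor. This SD describes single tumors, and whether the mean levels differed was not tested. The plot of levels by group shows the 10 genes tumor by tumor.

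**Figure D1:**
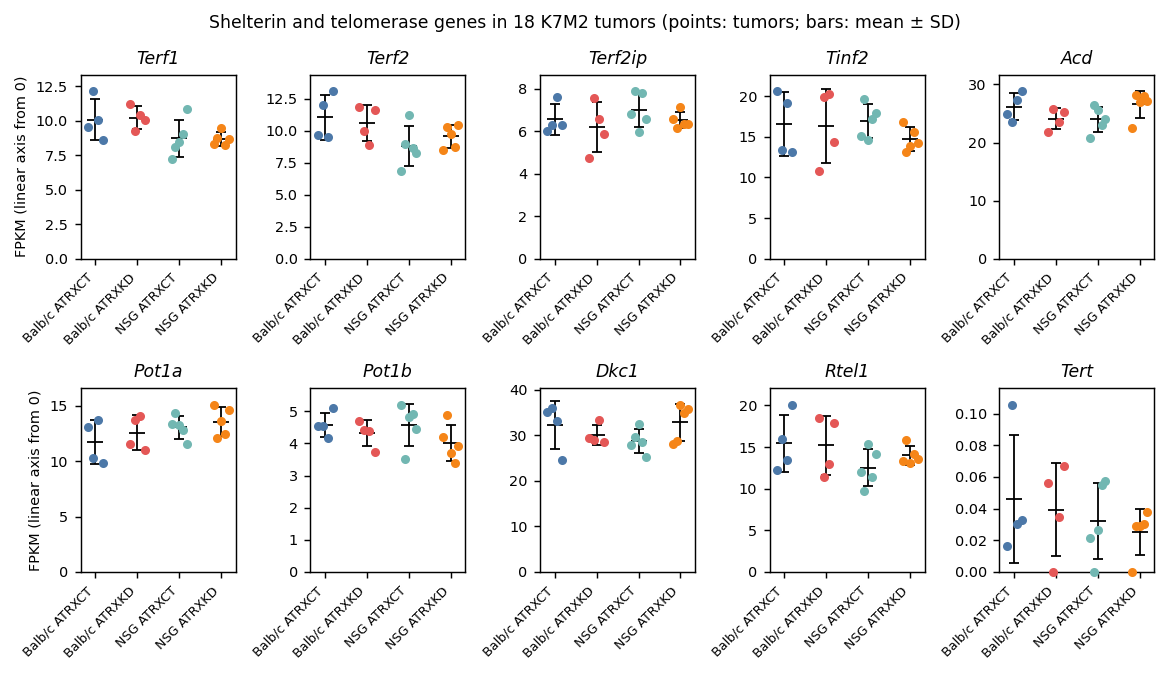
FPKM of the 10 genes (linear axes starting at 0, a scale for each gene) in the 4 Balb/c ATRXCT, 4 Balb/c ATRXKD, 5 NSG ATRXCT and 5 NSG ATRXKD tumors; points are tumors, the horizontal line is the group mean and the bar its SD. Groups overlap between control and knock-down in both hosts for all 10 genes, and the highest Tert value is 0.106 FPKM.

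The promoter sequences of the genes at both ends of this order, Dkc1 and Tert, are shown because they belong to the best and the least expressed member. Both windows, of 300 bases, span a RefSeq transcription start (GRCm38.p6) with most of their length before it, 5′ to 3′ in the direction of the gene, with GC boxes (GGGCGG or its reverse complement CCGCCC), the binding motif of SP1, in capitals.
Tert, chr13:73626661-73626960, plus strand: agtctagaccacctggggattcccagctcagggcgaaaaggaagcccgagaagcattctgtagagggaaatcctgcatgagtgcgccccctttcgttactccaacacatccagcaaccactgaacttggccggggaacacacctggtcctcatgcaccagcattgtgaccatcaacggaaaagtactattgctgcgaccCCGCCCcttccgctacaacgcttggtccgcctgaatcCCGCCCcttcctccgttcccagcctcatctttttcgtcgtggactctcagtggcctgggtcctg
Dkc1, chrX:75095604-75095903, plus strand: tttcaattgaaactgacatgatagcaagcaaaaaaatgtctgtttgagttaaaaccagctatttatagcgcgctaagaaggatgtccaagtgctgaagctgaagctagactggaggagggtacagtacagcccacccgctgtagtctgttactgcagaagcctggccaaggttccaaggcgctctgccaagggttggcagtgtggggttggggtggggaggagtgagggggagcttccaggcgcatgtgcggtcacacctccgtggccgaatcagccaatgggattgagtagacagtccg
The Tert window held 2 GC boxes and the Dkc1 window 0, while 35.7% of 32851 RefSeq promoter windows of this length held at least 1. Among the 9 members with a window (all but Terf1), 6 held a GC box (Tert, Rtel1, Pot1a, Terf2, Terf2ip and Pot1b). The E-box CACGTG, the motif of MYC, was in 0 of the 9 windows and in 7.15% of all windows. A copy of the telomere repeat TTAGGG, on either strand, was found in the Pot1b window and in 10.6% of all windows. A match says only that the letters are there. The Tert window ends before the start of 73627001 that the deposited annotation gives for this gene. Likewise, the Acd window (chr8:105701179-105701478, minus strand) does not reach the start of 105701095 given there for Acd.

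Terf1, a repeat-binding subunit that limits telomere elongation and helps the replication of the repeats (chr1:15805646-15844052, mm10, plus strand, 9 to 10 exons), was measured at 9.54, 12.1, 10.1 and 8.59 FPKM in the Balb/c ATRXCT tumors and at 11.2, 9.24, 10.4 and 10.02 FPKM in the ATRXKD tumors. In NSG mice it was at 7.19, 8.06, 8.49, 9.01 and 10.9 FPKM in ATRXCT and 8.31, 8.77, 9.50, 8.22 and 8.67 FPKM in ATRXKD tumors. The ATRXKD values lay within the range of the controls in both hosts, and the hosts overlapped, with the Balb/c values on the higher side. The knock-down difference was 0.03 (SE 0.14, adjusted p = 0.999) in Balb/c and 0.01 (SE 0.11, adjusted p = 0.983) in NSG mice. Terf2, the subunit that folds the chromosome end into a loop and holds back the ATM damage response (chr8:107069402-107096545, minus strand), was at 9.66, 12.004, 9.49 and 13.1 FPKM in ATRXCT and 11.9, 10.01, 8.92 and 11.6 FPKM in ATRXKD tumors of Balb/c mice. The NSG values were 6.84, 8.95, 11.2, 8.64 and 8.29 FPKM in ATRXCT and 8.51, 10.3, 9.74, 8.74 and 10.5 FPKM in ATRXKD tumors. Control and knock-down overlapped in both hosts, with the lowest value, 6.84 FPKM, in NSG control 1. The difference was -0.05 (SE 0.15, adjusted p = 0.999) in Balb/c and 0.12 (SE 0.12, adjusted p = 0.564) in NSG mice. The ratio of Terf1 to Terf2 had a median of 0.959 over the 18 tumors, between 0.656 and 1.31. Terf2ip codes for RAP1, which is carried to telomeres by TERF2 (chr8:112011359-112020528, plus strand, 3 exons). It stood at 6.02, 6.30, 7.62 and 6.30 FPKM in Balb/c ATRXCT, 4.77, 7.56, 6.60 and 5.89 in Balb/c ATRXKD, 6.84, 7.89, 5.98, 7.79 and 6.59 in NSG ATRXCT and 6.60, 6.17, 7.17, 6.36 and 6.33 FPKM in NSG ATRXKD tumors. The lowest value was that of Balb/c ATRXKD tumor 56, and the groups overlapped. Its difference was -0.08 (SE 0.16, adjusted p = 0.999) in Balb/c and -0.09 (SE 0.10, adjusted p = 0.604) in NSG mice.

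Among the bridging subunits, Tinf2 (TIN2, chr14:55679080-55681817, minus strand, 9 exons), which ties TERF1 and TERF2 to ACD, was one of the 2 most variable members within groups. Its FPKM values were 20.6, 13.3, 19.2 and 13.1 in Balb/c ATRXCT and 10.8, 19.9, 20.3 and 14.3 in Balb/c ATRXKD tumors. Each of these groups held a pair of tumors at or above 19.2 and a pair at or under 14.34 FPKM, so that the groups overlapped over nearly their whole range. In NSG mice Tinf2 was at 15.1, 19.7, 14.57, 17.2 and 17.9 FPKM in ATRXCT and 16.8, 13.1, 13.9, 15.6 and 14.2 FPKM in ATRXKD tumors. The 3 highest values were those of controls and the 3 lowest those of ATRXKD tumors 27, 28 and 30, yet the groups overlapped. The difference was -0.03 (SE 0.23, adjusted p = 0.999) in Balb/c and -0.18 (SE 0.10, adjusted p = 0.284) in NSG mice (95% interval -0.41 to 0.04). Acd (chr8:105698159-105701095, minus strand, 11 exons) was the highest shelterin subunit, with 25.0, 23.6, 27.4 and 28.8 FPKM in Balb/c ATRXCT and 21.9, 25.8, 23.5 and 25.2 FPKM in Balb/c ATRXKD tumors. NSG ATRXCT tumors had 20.8, 26.4, 25.6, 23.1 and 24.1 FPKM, and NSG ATRXKD tumors 22.6, 28.2, 26.9, 28.1 and 27.2 FPKM. In NSG mice 4 of the 5 ATRXKD tumors stood above all controls and tumor 26 below 4 of them, while in Balb/c mice the highest 2 values were those of controls. The difference was -0.11 (SE 0.12, adjusted p = 0.999) in Balb/c and 0.14 (SE 0.09, adjusted p = 0.351) in NSG mice. These opposite signs gave a difference between hosts of -0.26 (SE 0.13, adjusted p = 0.534), with an exact permutation p = 0.0376 before any adjustment. That permutation shuffled shRNA labels within each host. It therefore assumes no knock-down effect in either host, and does not test whether the effects were equal. As deposited, Acd had the lowest SD within groups of the 9 members above 1 FPKM (0.12 on the log2 scale, against a median of 0.25 over genes averaging 1 FPKM or more), but with the length trend removed it had the highest (0.2018, against a median of 0.2047). Acd shares 7 exonic bases, 0.491% of its own, with Rltpr on the opposite strand.

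The mouse has a pair of POT1 genes where humans have 1: Pot1a holds back the ATR response at the overhang, and Pot1b limits the trimming of the C-rich strand. Pot1a (chr6:25743735-25809226, minus strand, 18 exons) was at 13.1, 10.3, 13.8 and 9.79 FPKM in Balb/c ATRXCT and 11.5, 13.7, 14.1 and 11.004 FPKM in Balb/c ATRXKD tumors. In NSG tumors the values were 13.3, 14.4, 13.2, 12.8 and 11.6 FPKM for ATRXCT and 15.1, 12.1, 13.6, 12.4 and 14.64 FPKM for ATRXKD. All 4 groups overlapped, the 2 lowest tumors being Balb/c controls 43 and 45. Pot1b (chr17:55652025-55712628, minus strand, 17 exons) measured 4.54, 4.54, 4.18 and 5.09 FPKM in Balb/c ATRXCT and 4.70, 4.43, 4.38 and 3.75 FPKM in Balb/c ATRXKD tumors. The NSG tumors had 5.21, 3.53, 4.82, 4.91 and 4.46 FPKM (ATRXCT) and 4.22, 4.88, 3.69, 3.38 and 3.91 FPKM (ATRXKD). The lowest values of the series were those of NSG ATRXKD tumors 28 and 29 and of NSG control 2, and the groups overlapped in both hosts. The knock-down difference of Pot1a was 0.10 (SE 0.15, adjusted p = 0.999) in Balb/c and 0.05 (SE 0.09, adjusted p = 0.774) in NSG mice, and that of Pot1b -0.07 (SE 0.13, adjusted p = 0.999) and -0.15 (SE 0.12, adjusted p = 0.429). Pot1a exceeded Pot1b in all 18 tumors, by 1.92 to 4.07 times with a median of 2.91. The ratio was 2.59 ± 0.614 (SD, n = 4) in Balb/c ATRXCT, 2.92 ± 0.335 (n = 4) in Balb/c ATRXKD, 2.92 ± 0.651 (n = 5) in NSG ATRXCT and 3.43 ± 0.542 (n = 5) in NSG ATRXKD tumors, all overlapping. Transcripts of Pot1a and Pot1b have no window of 75 bases, the read length, in common with each other or any other gene, so that their reads could be told apart.

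Dkc1, the pseudouridine synthase of the complex that holds the telomerase RNA (chrX:75095854-75109776, plus strand, 15 exons), was at 35.2, 36.1, 33.2 and 24.5 FPKM in Balb/c ATRXCT and 29.4, 28.9, 33.4 and 28.5 FPKM in Balb/c ATRXKD tumors. In NSG mice it was at 27.8, 29.6, 32.6, 28.6 and 25.2 FPKM in ATRXCT and 28.0, 28.7, 36.7, 34.9 and 35.7 FPKM in ATRXKD tumors. The NSG ATRXKD tumors formed 2 levels, with tumors 28, 29 and 30 above all controls and tumors 26 and 27 among them. Its knock-down difference was -0.09 (SE 0.14, adjusted p = 0.999) in Balb/c and 0.18 (SE 0.10, adjusted p = 0.293) in NSG mice, where the exact permutation p was 0.0952. Tert, the catalytic subunit (chr13:73627001-73649041, plus strand, 16 exons), was close to nothing. It was at 0.0162, 0.106, 0.0303 and 0.0326 FPKM in Balb/c ATRXCT, 0.0565, 0, 0.0344 and 0.0667 in Balb/c ATRXKD, 0.0217, 0, 0.0267, 0.0546 and 0.0576 in NSG ATRXCT and 0, 0.0291, 0.0291, 0.0305 and 0.0376 FPKM in NSG ATRXKD tumors. It was listed at 0 in 3 tumors and above 0 in 15, and the highest value, in Balb/c control 43, stood for about 8.4 fragments. In 12 of the 18 tumors the value corresponded to no more than 3 fragments, a level of 0.0367 FPKM in the deepest and 0.0627 FPKM in the shallowest library, so that a difference in Tert was not detectable at this depth. Tert was the member left out of the tests by the filter of 0.1 FPKM. Terc, the RNA template of telomerase (chr3:96414437-96414833, minus strand, 397 bases), was above 0 in all tumors. Its values stood for about 1.6 (NSG ATRXKD tumor 27) to 21.8 fragments (Balb/c ATRXKD tumor 59), so that depth limits them too. Terc was singled out after its values had been seen, which limits its p-values. It was at 0.725, 2.32, 4.07 and 0.720 FPKM in Balb/c ATRXCT and 2.31, 4.50, 5.06 and 1.498 FPKM in Balb/c ATRXKD tumors, and at 2.72, 2.47, 2.61, 3.54 and 3.77 FPKM in NSG ATRXCT and 0.677, 0.318, 3.16, 1.96 and 1.38 FPKM in NSG ATRXKD tumors. In NSG mice 4 of the 5 ATRXKD tumors were under all controls, whereas in Balb/c mice the highest 2 values were those of ATRXKD tumors 58 and 59. The difference was 0.62 (SE 0.40, adjusted p = 0.999) in Balb/c and -0.79 (SE 0.27, adjusted p = 0.0871) in NSG mice, with an exact permutation p = 0.0317 in the latter. The difference between these effects was 1.41 (SE 0.50, adjusted p = 0.375). Its exact permutation p = 0.0253 again assumes no knock-down effect in either host, and does not test whether the effects were equal. Terc had an SD within groups of 0.58 on the log2 scale, over 2 times the median of 0.25.

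Rtel1, a helicase that opens the telomere loop during replication (chr2:181319724-181356616, plus strand, 33 to 34 exons), had 12.3, 15.9, 13.5 and 20.1 FPKM in Balb/c ATRXCT and 18.5, 11.4, 12.9 and 17.9 FPKM in Balb/c ATRXKD tumors. NSG tumors had 11.96, 9.78, 15.4, 11.3 and 14.1 FPKM (ATRXCT) and 13.4, 15.8, 13.0, 14.2 and 13.6 FPKM (ATRXKD). Balb/c control 45 and ATRXKD tumors 56 and 60 were the highest, and NSG control 2 the lowest, with all groups overlapping. The knock-down difference was -0.03 (SE 0.20, adjusted p = 0.999) in Balb/c and 0.16 (SE 0.12, adjusted p = 0.408) in NSG mice.

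Knock-down of Atrx thus came with no called difference in any of the 9 members that could be tested. In Balb/c mice 0 of 9 passed an adjusted p of 0.05 in limma, where 0.00680% of all genes did (1 of 14701). An unadjusted p under 0.05 was reached by 0 of 9, against 609 of all genes (4.14%). The 9 differences ran from -0.11 (Acd) to 0.10 (Pot1a), with a median of -0.05 beside -0.003 for all genes. In NSG mice 0 of 9 passed, where 6.78% of all genes did (547 higher and 447 lower of 14654, or 419 and 538 with median-ratio scaling). The count with an unadjusted p under 0.05 was 0 of 9, against 3853 of all genes (26.3%). Here the differences ran from -0.18 (Tinf2) to 0.18 (Dkc1) with a median of 0.05, and adjusted p-values from 0.284 to 0.983. At a background of 6.78%, a count of 0 among 9 genes is near what all genes gave. Control and ATRXKD tumors overlapped for each of the 10 members in both hosts. Groups that did not overlap made up 3.18% of all genes in Balb/c and 7.50% in NSG mice.

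With host as a term, over all 18 tumors, 0 of 9 passed, where 2.06% of all genes did (305 of 14803). The count with an unadjusted p under 0.05 was 0 of 9, against 2692 of all genes (18.2%). Pot1b had the lowest adjusted p (0.458, difference -0.12). The 95% intervals set limits to what could have been missed. For each member, the fold at the far end of the interval was 1.26 to 1.47 in Balb/c mice, 1.18 to 1.34 in NSG mice and 1.13 to 1.29 over both. A change of 2-fold on the log2(FPKM + 1) scale lay outside every one of these intervals. For comparison, the interval of Atrx itself was -1.15 to 0.48 in Balb/c and -1.21 to -0.26 in NSG mice. The plot of fitted differences sets these intervals side by side.

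**Figure D2:**
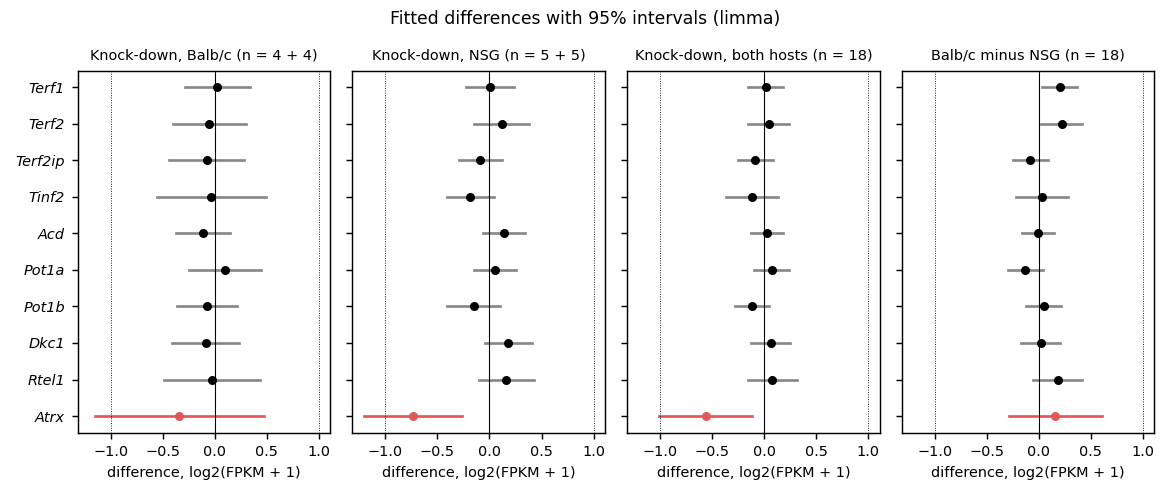
Fitted differences on the log2(FPKM + 1) scale (points) with their 95% intervals (lines) for 9 members (black) and Atrx (red), for the knock-down in Balb/c hosts, in NSG hosts and over both, and for Balb/c minus NSG; dotted lines mark -1 and 1. Every member interval in the 3 knock-down panels includes 0 and stays within -0.56 and 0.49, while Terf1 and Terf2 lie above 0 in the host panel before adjustment over all genes.

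Between hosts, with the shRNA as a term, 0 of 9 members passed, where 10% of all genes did (1484 of 14803, 64.3% of them higher in Balb/c tumors, or 53.9% with the length trend removed). An unadjusted p under 0.05 was reached by 2 members, against 3807 of all genes (25.7%). These were the 2 double-strand binding subunits. Terf1 was higher in Balb/c than in NSG tumors by 0.20 (SE 0.08, adjusted p = 0.119), with an exact permutation p = 0.0116, and Terf2 by 0.22 (SE 0.09, adjusted p = 0.148), with an exact permutation p = 0.0277. Neither passed after adjustment. Every member overlapped between hosts, as did all but 2.05% of all genes. Strain, immune status and the host cells in the tumor changed together with the host, as did the level of the Y-linked genes given above, and cannot be told apart. All 8 T cell markers were higher in Balb/c tumors, 7 of them called, and of 5 NK cell markers 5 were called higher. Of 5 B cell markers 4 were tested, with 3 higher (1 called), 1 lower and a median difference of 0.08. The B cell list averaged 0.437 to 0.627 in Balb/c and 0.349 to 0.764 in NSG tumors, on the log2(FPKM + 1) scale. The T cell list averaged 2.08 to 2.84 on the log2(FPKM + 1) scale in Balb/c and 0.148 to 0.444 in NSG tumors, with Cd3g at 0 in every NSG ATRXCT and Cd3e in every NSG ATRXKD tumor, and the NK list 2.49 to 4.13 against 0.140 to 0.345. Their part in the values of Terf1 and Terf2 was not tested.

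The test of whether the knock-down effect differed between hosts called 0 of 9 members and 0.00% of all genes (0 of 14803). An unadjusted p under 0.05 was reached by 0 of 9 members and 1527 of all genes (10.3%). Member values ran from -0.27 (Dkc1, adjusted p = 0.634) to 0.15 (Tinf2). The counts in NSG mice and in the test between hosts depended on the fit. With each library weighted by its quality and with robust variance estimation, 3 members were called in NSG mice. In ATRXKD tumors Pot1b was lower (-0.26, adjusted p = 0.0407), and Acd (0.22, adjusted p = 0.0363) and Dkc1 (0.32, adjusted p = 0.00928) were higher. The same fit called 36.9% of all genes (5414 of 14654). In the test between hosts it called Dkc1 (-0.47, adjusted p = 0.0348) together with 13.4% of all genes (1985 of 14803), and also Terc (1.80, adjusted p = 0.0166). In both cases the members' share was near or under that of all genes.

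Within groups, members varied with the libraries, as many other genes did. After subtraction of the 4 group means, 5 of 9 members followed the length slope of the library over the 18 tumors (permutation test within groups, adjusted over 9 relations). An absolute r over 0.7 was reached by 5 of 9 members and by 44.4% of the 12181 genes averaging 1 FPKM or more, a share near that of the members. Rtel1, with the longest transcript of the set (4439 bases), was higher in libraries leaning to long transcripts (Pearson r = 0.852, adjusted p = 0.00344, rho = 0.835, adjusted p = 0.00693), and so was Terf2 (2664 bases, r = 0.782, adjusted p = 0.00344, rho = 0.769, adjusted p = 0.0076). Tinf2 (1739 bases) went the other way (r = -0.873, adjusted p = 0.00344, rho = -0.864, adjusted p = 0.00594). Length alone did not order them, since Terf2ip (3599 bases, r = -0.781, adjusted p = 0.00344, rho = -0.756, adjusted p = 0.0076) and Pot1a (3153 bases, r = -0.726, adjusted p = 0.0192, rho = -0.703, adjusted p = 0.0246) were also lower in such libraries. Acd, with the shortest transcript (1425 bases), showed no relation (r = 0.0489, rho = 0.0609, adjusted p of rho = 0.829). Without the 2 libraries of the most distant slopes, r was 0.833 for Rtel1, 0.786 for Terf2, -0.847 for Tinf2, -0.723 for Terf2ip and -0.697 for Pot1a. The plot of levels against the slope shows the pattern for 4 of them.

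**Figure D3:**
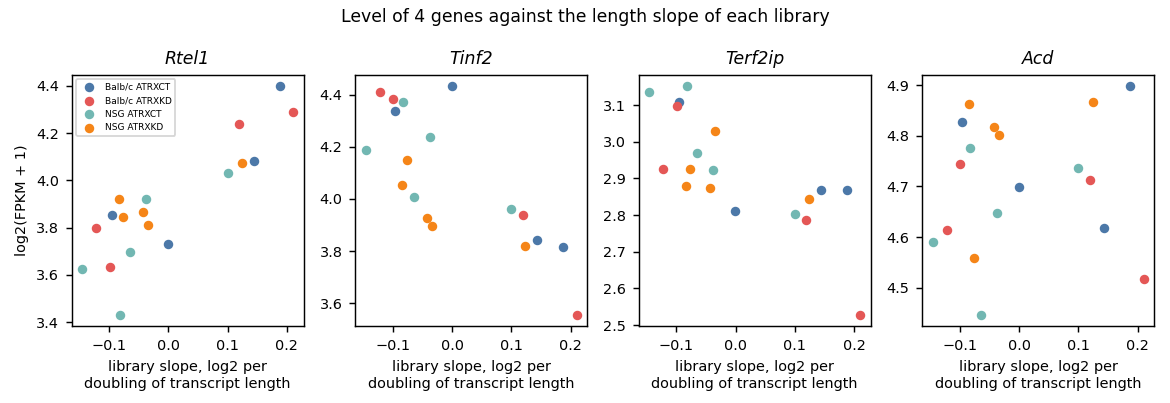
Level of Rtel1, Tinf2, Terf2ip and Acd on the log2(FPKM + 1) scale against the slope of each library (log2 units per doubling of transcript length); points are the 18 tumors, coloured by group. Rtel1 goes up with the slope (r = 0.852 after subtraction of group means), Tinf2 and Terf2ip go down (-0.873 and -0.781) and Acd does neither (0.0489).

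Relations between members were computed in the same way. Of 36 pairs, 2 had an adjusted p under 0.05 by permutation within groups, both negative. Tinf2 and Rtel1 had r = -0.824 (adjusted p = 0.0446, rho = -0.839, adjusted p = 0.0718), and r = -0.808 without the 2 tumors farthest from the median of Tinf2. Pot1a and Rtel1 had r = -0.792 (adjusted p = 0.0446, rho = -0.779, adjusted p = 0.0718), and -0.756 without the 2 farthest tumors. By rank neither passed. When a smooth trend with length was removed from each library, r became -0.607 for the former and -0.694 for the latter pair. The same step moved Terf2 and Acd from 0.416 to 0.875, and raised the pairs with an absolute r over 0.5 from 8 to 15, so that the co-variation of shelterin genes in these tumors depended on how length was treated. As deposited, Acd had no relation to the library slope (r = 0.0489), and the step raised its SD within groups from 0.12 to 0.20. Whether the step itself made the r of 0.875 was not tested. Pairs of subunits that bind each other showed no common pattern, with Tinf2 and Acd at r = 0.131 and Terf2 and Terf2ip at -0.448.

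**Figure D4:**
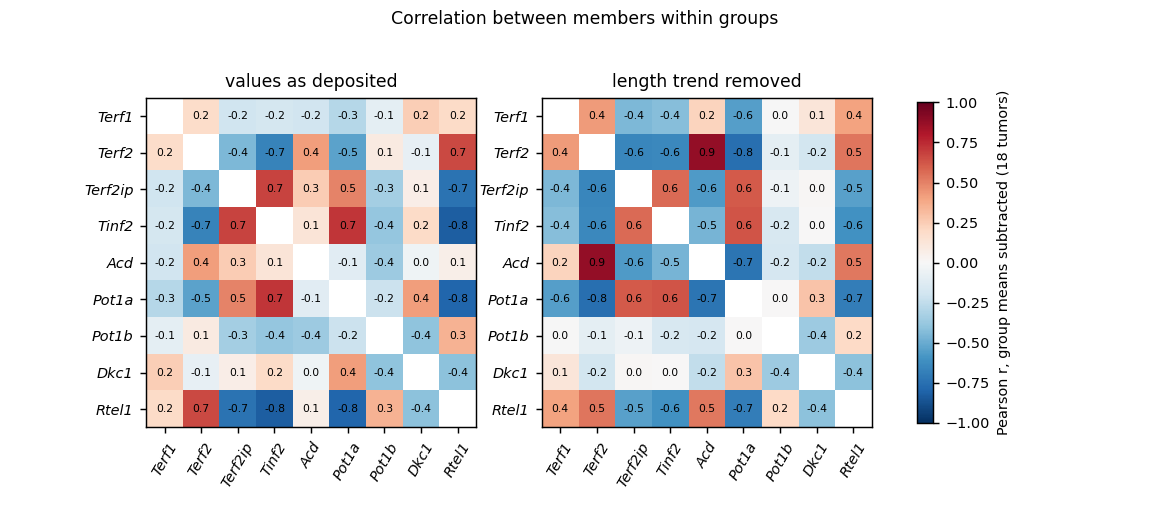
Pearson r between 9 members over the 18 tumors after subtraction of group means, from the deposited values (left) and after removal of the length trend of each library (right); blue is negative and red positive. Tinf2 and Rtel1 go from -0.824 to -0.607, and Terf2 and Acd from 0.416 to 0.875.

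The spread within groups also depended on length. Tinf2 (SD 0.27 on the log2 scale) and Rtel1 (0.25) were the only members at or near the median of 0.25 over genes of at least 1 FPKM, and both came down when the length trend was removed (0.17 and 0.18), as did Dkc1 (0.17 to 0.16) and the median of all these genes (0.25 to 0.20). The same step raised Acd (0.12 to 0.20), Terf2ip (0.15 to 0.20), Terf1 (0.15 to 0.17) and Terf2 (0.19 to 0.20). The other members averaging 1 FPKM or more had an SD of 0.12 (Acd) to 0.19 (Terf2). For each member, the gene of nearest pattern within groups was sought among 12180 genes. Tinf2 went with Hint2 (r = 0.964) and Maf1 (0.957), Rtel1 with Sfswap (0.956) and Cep295 (0.951), Terf2 with Cwc22 (0.947) and Slfn9 (0.946), and Pot1a with Crot (0.939) and D6Wsu163e (0.933). Dkc1 went with Pdia4 (0.917) and Smarce1 (0.896), Pot1b with Zfp397 (0.906) and Ddx17 (0.876), and Terf2ip with Eef1g (0.897) and Thoc5 (0.894). The likeness was weaker for Acd (Upf3a, 0.798, and Ddb1, 0.780) and Terf1 (Plekhs1, 0.791, and Ell2, 0.769). With the length trend removed, 15 of these 18 values were over 0.7, but Acd and Ddb1 went to 0.0293. These values describe 18 tumors that share libraries and depth.

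Related genes of the pathway, taken from lists, gave called differences in NSG mice only among the knock-down tests within a host, which does not show that the hosts differed. Of 14 genes of telomerase assembly and its RNA, 2 were called higher in NSG ATRXKD tumors and 0 lower. They were Shq1, the chaperone that holds dyskerin before assembly (6.39 ± 0.371 FPKM in ATRXCT and 8.97 ± 1.14 in ATRXKD, SD, n = 5 each, difference 0.43, adjusted p = 0.0306), and Ruvbl1, an ATPase of that assembly (30.2 ± 1.76 and 41.8 ± 6.72 FPKM, difference 0.44, adjusted p = 0.0397). Of 29 shelterin-associated factors, 3 were called higher, and 0 lower. Xrcc5, the Ku80 end-binding protein, had a difference of 0.71 (10.4 ± 2.37 and 17.4 ± 2.66 FPKM, adjusted p = 0.0254), the flap nuclease Fen1 0.54 (33.4 ± 3.14 and 48.9 ± 4.67 FPKM, adjusted p = 0.0148) and the MUS81 partner Eme1 0.40 (4.38 ± 0.498 and 6.09 ± 0.588 FPKM, adjusted p = 0.0397). Of 27 genes of alternative lengthening and its chromatin, Cbx3, a heterochromatin protein, was the 1 called (0.37, adjusted p = 0.0207), and higher. This list includes Atrx itself, the target of the shRNA, which was not called here. Of 10 CST and end replication genes, which fill in the C-rich strand, 0 were called in limma, 5 had an unadjusted p under 0.05, and 9 had a difference above 0. Over these 4 lists and the proliferation list that follows, 12 of 98 genes were called (12.2%), beside 6.78% of all genes, and 41 had an unadjusted p under 0.05, beside 26.3% of all genes. The medians of the 4 lists were 0.18, -0.06, 0.14 and 0.24, beside -0.001 for all genes and 0.05 for the 9 members.

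Of 18 proliferation genes, 6 were called higher in NSG ATRXKD tumors and 0 lower, with a list median of 0.36. The largest were the mitotic kinase Plk1 (0.66, adjusted p = 0.0164), the replicative helicase subunits Mcm3 (0.58, adjusted p = 0.0223) and Mcm6 (0.49, adjusted p = 0.0219), and Aurkb, the kinase of the chromosomal passenger complex (0.47, adjusted p = 0.0254). Macrophage markers, of which 3 of 8 were called lower, averaged 8.10 to 8.67 on the log2(FPKM + 1) scale in ATRXCT and 7.63 to 8.24 in ATRXKD tumors, and endothelial markers, 2 of 5 called higher, 1.73 to 3.02 and 2.67 to 3.11. Their part in the related genes was not tested. Leaving out single tumors ended most calls of these genes and added others. When each of the 10 tumors was left out in turn, the call held in 9 fits for Fen1, 8 for Plk1, 5 for Xrcc5, Cbx3, Aurkb, Mcm3 and Mcm6, 4 for Shq1, 3 for Ruvbl1 and 2 for Eme1, with adjusted p-values up to 0.114. Without ATRXKD tumor 30 none of these 10 was called (adjusted p up to 0.114, for Ruvbl1), and without tumor 28 Fen1 alone was. Without ATRXKD tumor 29, control 1 or control 4, Fen1 and Plk1 were. Without control 5 Ruvbl1, Shq1 and Eme1 lost their calls, without control 2 Ruvbl1 and Eme1, and without ATRXKD tumor 27 Eme1. The 6 proliferation calls came to 0 or 1 without control 1, control 4 or ATRXKD tumor 28, 29 or 30. Without control 3, in contrast, the calls went from 3 to 8 among shelterin-associated factors, from 1 to 6 for alternative lengthening and from 0 to 1 for CST. Without control 2, tumor 26 or tumor 27, 2 genes of alternative lengthening were called, and without tumor 26 also 1 of CST. Without control 2 or tumor 27, these 2 genes were Cbx3 and Atrx, the target of the shRNA. In Balb/c mice 0 of the 98 genes of the 5 lists were called in limma, and 2 had an unadjusted p under 0.05, beside 4.14% of all genes. Over both hosts 3 of 98 (3.06%) were called, beside 2.06% of all genes. Shq1 (0.37, adjusted p = 0.0113), Xrcc5 (0.52, adjusted p = 0.0335) and Cbx3 (0.27, adjusted p = 0.0229) were higher in ATRXKD tumors, and the call of Shq1 held without any 1 of the 18 tumors. That of Xrcc5 held in 11 of 18 such fits (adjusted p up to 0.0783) and that of Cbx3 in 15 of 18 (up to 0.0580). The plot of related genes shows these lists next to the members.

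**Figure D5:**
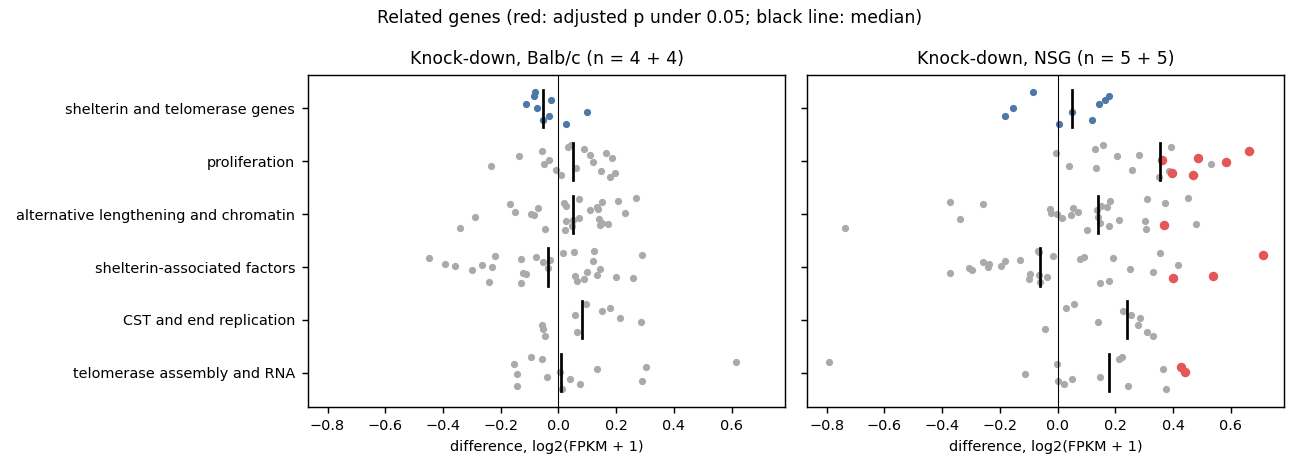
Knock-down differences on the log2(FPKM + 1) scale in Balb/c (left) and NSG (right) mice for the 9 members (blue) and 5 lists of related genes (grey; red where the adjusted p is under 0.05); each point is a gene and the black line the median of its list. In NSG mice the proliferation list has a median of 0.36 and the members 0.05.

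Between hosts, with the shRNA as a term, 5 of the 98 related genes were called (5.10%), under the share of all genes given above (10%). In Balb/c tumors Naf1, an assembly factor of the dyskerin complex (0.31, adjusted p = 0.0323), Rif1, a factor of replication timing and end processing (0.35, adjusted p = 0.0338), and Top2a, the mitotic topoisomerase (0.36, adjusted p = 0.0440), were higher. Fbxo4, the ubiquitin ligase subunit that marks TERF1 for degradation, was lower (-0.43, adjusted p = 0.0173), with 6.81 ± 1.23 and 8.05 ± 1.98 FPKM in Balb/c (ATRXCT and ATRXKD, SD, n = 4 each) against 10.4 ± 1.63 and 10.1 ± 1.22 FPKM in NSG tumors (n = 5 each). Nsmce2, the SUMO ligase of the SMC5-SMC6 complex, was lower too (-0.50, adjusted p = 0.0397). The call of Fbxo4 held without any 1 of the 18 tumors, whereas that of Naf1 held in 11, of Rif1 in 9, of Top2a in 7 and of Nsmce2 in 6 of 18 such fits (adjusted p up to 0.103). Once the length trend was removed, Rif1 (0.16, adjusted p = 0.155) and Top2a (0.24, adjusted p = 0.0528) lost their calls. Without the filter Top2a (adjusted p = 0.0555) and Nsmce2 (adjusted p = 0.0569) did, and at a mean of at least 1 FPKM Top2a (adjusted p = 0.0510). In the tumors of a single shRNA, with fewer samples, none of the 5 was called. The host difference was 0.50 in ATRXCT and 0.12 in ATRXKD tumors for Naf1, 0.54 and 0.18 for Top2a, 0.42 and 0.27 for Rif1, -0.55 and -0.31 for Fbxo4 and -0.62 and -0.37 for Nsmce2. The test of the knock-down effect between hosts, which compares these values, gave adjusted p = 0.419 for Naf1 and 0.598 for Top2a. The RNA difference of Terf1 itself, 0.20 higher in Balb/c tumors, did not pass. TERF1 protein, on which FBXO4 acts, was not measured here, and a link between Fbxo4 and Terf1 was not tested. In the test of the knock-down effect between hosts, 0 of the 98 genes were called in limma, and 13 had an unadjusted p under 0.05, beside 10.3% of all genes.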

How the data were processed

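RNA of 18 K7M2 tumors was sequenced in pairs of 75 bp reads from ribosome-depleted, strand-marked total RNA libraries. Per the study's methods, the authors aligned reads to mm10 with STAR 2.6.0c, removed low-quality alignments and duplicates, and computed FPKM with Cufflinks 2.2.1 over RefSeq genes. The matrix the authors deposited holds log2 values, log2(FPKM + 1), although it is named as FPKM: undoing base 2 gave per-tumor sums of 1.06 to 1.09 times the expected total, undoing the natural log 8.09 to 10.8 times. Depth was estimated from the steps of low values, and only 35.6 to 45.1% of these came out within 0.1 of a whole fragment, so fragment numbers are approximate and no count test was run.

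Groups and mouse numbers came from the sample titles. Genes averaging 0.1 FPKM or more over the tumors of a fit were tested with limma 3.58.1 (R 4.3.3, trend) on log2(FPKM + 1), with Benjamini-Hochberg adjustment over all genes and calls at 0.05. Exact two-sided permutation tests were run per member (70, 252 and up to 17640 arrangements, and all 15876 for the host, where 100000 resamples had been planned). For the difference of the knock-down effect between hosts, shRNA labels were shuffled within each host. This assumes no effect in either host and does not test equal effects. Correlations used 100000 permutations within groups. p-values measure the spread between tumors of separate mice, and not that between transductions or cell lines. The spike-in rows (92) were left out. In simulations, changes of 2 log2 units were recovered for 90% of changed genes in Balb/c and 100% in NSG mice, and changes of -1 for 57% and 91%, over 14719 and 14673 genes tested. Alternatives were another pseudocount, filter and scaling, removal of the length trend, library weights, a fold of at least 2, other sample sets and leaving out each tumor. Library weights were always used together with limma's robust variance estimation, which the main fit did not use. Named genes were the 10 members, Atrx, up to 4 called genes of largest change per related list and comparison, and the 2 genes of nearest pattern per member; Terc was added after its values were seen. The members and lists were chosen with earlier results of these data known. The authors' test, DESeq, was not used here. Promoter windows are from RefSeq (GRCm38.p6), and 9 of 10 members matched.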

Additional observations from a re-analysis of the deposited data

Results flagged for a closer look

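In NSG ATRXKD tumors, Acd was at 4.56 on the log2(FPKM + 1) scale in tumor 26 while the other 4 lay between 4.80 and 4.87, and Tert was at 0 in the same tumor while the other 4 lay between 0.0414 and 0.0532. Each lowest value stood apart from its group by more than Dixon's 95% criterion allows. Of 44 groups of tumors checked, 2 stood out in this way, and chance gives about 2.2. The value of Tert stands for no more than a few fragments in any of these tumors. For Acd, the knock-down effect in Balb/c hosts less the effect in NSG hosts was -0.26, with an exact permutation p = 0.0376 and an adjusted p = 0.534 in limma. For Terc the same value was 1.41, with an exact permutation p = 0.0253 and an adjusted p = 0.375 in limma. Neither passed after adjustment, apart from Terc with library weights (1.80, adjusted p = 0.0166). Both permutation p-values assume no knock-down effect in either host, and do not test whether the effects were equal.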

How the results depend on the processing

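No paired analysis was possible because mouse numbers are not shared between groups. The count of members called was 0 in all 5 comparisons and stayed at 0 under all alternatives and in all 72 fits that left out a tumor, apart from library weights, which gave 3 in NSG mice and 1 in the test between hosts. All sign changes concerned differences that had not passed, none over 0.0799 in size among the members. With library weights the sign turned for Terf1 (-0.0193), Tinf2 (0.0802) and Terf2ip (0.104) in Balb/c mice, for Terf1 over both hosts (-0.0301) and in the test between hosts (-0.0063), and for Acd (0.0090) and Terc (-0.0770) in the host difference. With the length trend removed it turned for Rtel1 in Balb/c (0.0069) and Terf1 in NSG mice (-0.0023), and in the host difference for Pot1b (-0.0098), Acd (0.0714), Dkc1 (-0.0033) and Atrx (-0.0466). With median-ratio scaling it turned for Terf1 in NSG mice (-0.0270) and over both hosts (-0.0004), and for Acd in the host difference (0.0010). Among ATRXCT tumors alone, the host difference turned for Tinf2 (-0.0469), Acd (0.122), Atrx (-0.0385) and Terc (-0.586), and among ATRXKD tumors for Dkc1 (-0.116). Leaving out a tumor gave ranges in Balb/c mice of -0.0410 to 0.110 for Terf1, -0.115 to 0.0269 for Terf2, -0.147 to 0.139 for Tinf2, -0.126 to 0.102 for Rtel1 and -0.168 to 0.0222 for Terf2ip. In NSG mice the range of Terf1 was -0.0537 to 0.0797. Over both hosts the ranges were -0.0162 to 0.0540 for Terf1, -0.0018 to 0.0823 for Terf2 and -0.0045 to 0.0568 for Acd. In the host difference they were -0.0300 to 0.101 for Tinf2, -0.0381 to 0.0246 for Acd, -0.0211 to 0.0613 for Dkc1 and -0.0286 to 0.274 for Terc. In the test between hosts they were -0.0544 to 0.105 for Terf1, -0.0246 to 0.126 for Pot1a and -0.0810 to 0.109 for Terf2ip. The cause was not tested. Library weights also raised the related genes called in NSG mice, from 2 to 7 (telomerase assembly), 0 to 5 (CST), 3 to 13 (shelterin-associated), 1 to 14 (alternative lengthening) and 6 to 11 (proliferation), and removal of the length trend from 3 to 8 (shelterin-associated), 1 to 5 (alternative lengthening) and 0 to 2 (CST). Over both hosts these counts went from 1 to 4, 1 to 5 and 0 to 1 with the length trend removed, and proliferation from 0 to 3. The raised counts of alternative lengthening include Atrx, the target of the shRNA, which was called in each of these fits. Library weights raised all genes called from 994 to 5414 (1874 with the length trend removed, 68 at a fold of at least 2, and 144 to 2080 without single tumors), from 305 to 2922 over both hosts (669, 16 and 120 to 420), from 0 to 1985 between the effects of the hosts and from 1 to 22 in Balb/c mice (0, 1 and 0 to 2). The 1484 genes of the host difference became 213 at a fold of at least 2, 472 in ATRXCT and 534 in ATRXKD tumors alone, and all 4 groups in the fit gave 16 in Balb/c mice. In NSG mice Eme1 was not called without the filter (adjusted p = 0.0604), with median-ratio scaling (0.0524) or with all 4 groups in the fit (0.0662). Of the proliferation calls, Bub1 was lost without the filter (0.0578), with median-ratio scaling (0.0614) and with the length trend removed (0.0728). Mcm5 was lost with a pseudocount of 0.1 (0.0501), without the filter (0.0558), with median-ratio scaling (0.0579) and with all 4 groups in the fit (0.0668). Depth limits Tert, and also Terc, which stood at about 1.6 to 21.8 fragments. The spread between 4 or 5 tumors limits the other members to the folds given with their intervals.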
